A study of Mus musculus with 235 samples.

Results

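The genes described here encode the machinery of mitochondrial oxidative phosphorylation, and they were followed in the livers of 31 inbred mouse strains after isoniazid or vehicle. They were chosen by name, with earlier results of these data known. Every gene was taken whose symbol began with Ndufa, Ndufb, Ndufc, Ndufs, Ndufv, Sdha, Sdhb, Sdhc, Sdhd, Uqcr, Cox4i, Cox5, Cox6, Cox7, Cox8 or Atp5. Each was read from its probe set with the highest mean among the probe sets that carry 1 gene symbol. This gave 92 of the 18146 genes measured. Of these, 71 encode subunits found in liver (33 of complex I, 4 of complex II, 8 of complex III, 10 of complex IV and 16 of complex V), 13 encode assembly factors, and 8 encode isoforms best known from other tissues. Only nuclear genes carry these symbols. Genes such as Ndufs5, Ndufs6, Ndufa11, Cox7b and Atp5l were not analysed here.

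The isoniazid groups received the drug, an antibiotic used against tuberculosis, by oral gavage at 100 mg/kg each day for 3 days, and the vehicle groups received sterile water in the same way. All animals were females of 8 to 10 weeks, and RNA came from the left liver lobe 24 h after the last dose, 1 expression array per animal. There were 111 isoniazid arrays and 124 vehicle arrays, with 4 vehicle animals in each strain and 4 isoniazid animals in 22 strains. In the other 9 strains isoniazid animals had died before the end and were not analysed, which left 3 isoniazid animals in LP/J, PL/J, NON/LtJ, LG/J and RIIIS/J and 2 in SM/J, MA/MyJ, SEA/GnJ and A/J. The submitters coded 13 strains as showing isoniazid-induced steatosis, the build-up of fat in liver cells, and 18 as not, and this code belongs to the strain rather than to the animal.

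Oxidative phosphorylation is carried by 5 complexes of the inner mitochondrial membrane. Complex I takes electrons from NADH and complex II, succinate dehydrogenase of the citric acid cycle, takes them from succinate; both pass them to ubiquinone, from which complex III hands them through cytochrome c to complex IV, where oxygen is reduced to water. Complexes I, III and IV pump protons while doing so, and complex V, ATP synthase, lets the protons return to make ATP. In hepatocytes the chain also takes up the electrons released by fatty acid oxidation. Isoniazid is known for liver injury in patients, and interference with mitochondrial respiration has been described for its metabolites.

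Values are log2 expression per probe set, normalised over all arrays by the authors, so a difference of 1 is a doubling and a level can be compared between animals but not between genes. The arrays had medians of 3.96 to 4.21, and 21 of them (10 isoniazid, 11 vehicle) had a narrower spread of values than the rest. The liver markers were high (Alb, albumin, averaged 14.42 in isoniazid and 14.43 in vehicle livers). The 11 measured macrophage markers had a median difference of -0.22, with 8 of 11 lower after isoniazid, and their mean covered 5.31 to 9.58 on isoniazid and 5.68 to 9.61 on vehicle arrays. In these bulk samples, fewer cells of a type and less RNA per cell cannot be told apart. One vehicle array of C58/J held muscle transcripts (mean of 17 muscle markers 6.58, against 3.88 on the next highest array), and results that rest on it are given with and without it. None of the 17 muscle markers passed the test between treatments.

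Isoniazid was followed by a small rise of most subunit genes, found in each of the 5 complexes but in complex III in only 4 of 8. Averaged over the 71 subunits, the level was 10.97 in isoniazid livers and 10.87 in vehicle livers, a difference of 0.10 ± 0.06 (SD, n = 31 strains), and it was positive in 30 of 31 strains, with a range of -0.02 to 0.23. With each strain's difference (mean of isoniazid animals minus mean of vehicle animals) as 1 replicate, 50 of the 71 subunits were higher and 2 lower (limma, adjusted p under 0.05 over all genes), and 19 did not pass. Among all 18146 genes, 10.2% were higher and 9.85% lower, and among the 3630 genes above the 80th percentile of level, to which 73 of the 92 genes belong, 24.5% were higher and 18.6% lower. The median difference was 0.11 over the subunits, 0.00 over all genes and 0.01 over those highly expressed genes.

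The shift was even rather than driven by a few genes. Of the 71 subunits, 62 had a positive mean difference, and 34 were both called and higher in at least 27 of 31 strains. By complex, 25 of 33 subunits of complex I rose (median difference 0.13), 4 of 4 of complex II (0.14), 4 of 8 of complex III (0.08), 6 of 10 of complex IV (0.10) and 11 of 16 of complex V (0.09). All subunits called lower belonged to complex I. Averaged over strains, every subunit stayed under a 1.5-fold change, and the strain means of the treatments overlapped for all 92 genes, as they did for all 18146. Single strains went past 1.5-fold with a call for Ndufc1 in NOR/LtJ (0.69), Ndufa5 in AKR/J (0.66) and DBA/2J (0.59), and Ndufab1 in NZW/LacJ (0.59). Ndufb4, Cox7c and Atp5md sat near or below the array medians, where a difference could hardly be measured.

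In complex I, the clearest rises were in Ndufb10, Ndufa5, Ndufab1 and Ndufs8. Ndufb10, an accessory subunit of the membrane arm, measured 9.57 to 10.66 (median 10.24) on isoniazid arrays, against 9.61 to 10.28 (median 9.98) on vehicle arrays. The ranges overlapped, but the upper part of the isoniazid range was reached by no vehicle animal. The strain means were 10.21 ± 0.12 in isoniazid livers and 9.97 ± 0.11 in vehicle livers (SD, n = 31 strains each), a difference of 0.24 (95% interval 0.19 to 0.30, limma adjusted p = 5.29e-08), positive in 29 of 31 strains and largest in AKR/J at 0.50.

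Ndufa5, another accessory subunit, measured 9.60 to 10.71 (median 10.15) after isoniazid and 9.32 to 10.64 (median 9.88) after vehicle. Nearly the whole range was shared because strains differed in their starting level. Within strains it moved more than any other complex I gene, by 0.29 (95% interval 0.23 to 0.36, 1.23-fold, limma adjusted p = 5.64e-08), positive in 29 strains, and a second Ndufa5 probe set gave 0.28. AKR/J separated fully, with 10.22, 10.22, 10.43 and 10.45 in isoniazid livers, against 9.41, 9.70, 9.76 and 9.83 in vehicle livers, whereas MA/MyJ, with 2 isoniazid animals, went the other way by -0.19.

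Ndufab1 encodes the mitochondrial acyl carrier protein, which serves both in complex I and in mitochondrial fatty acid synthesis. Its arrays covered 10.10 to 11.24 (median 10.85) after isoniazid and 10.14 to 10.91 (median 10.61) after vehicle, so that the 2 groups overlapped except at the top. The difference was 0.22 (95% interval 0.17 to 0.28, limma adjusted p = 3.71e-07, positive in 27 strains). It was 0.12 as the mean of its 5 probe sets, the other 4 of which gave -0.04 to 0.21. The probe set of next highest mean level (7.57) gave 0.19, and the remaining ones averaged 2.87 to 4.61, near or below the array medians. Ndufs8, an iron-sulfur subunit of the conserved core, had 10.82 to 11.69 (median 11.30) in isoniazid livers and 10.48 to 11.48 (median 11.09) in vehicle livers. It was higher in 30 of 31 strains, by 0.19 (limma adjusted p = 3.87e-07), and its 6 probe sets gave 0.09 to 0.19. Other core subunits that rose included Ndufs1 (0.17), Ndufs3 (0.13), Ndufv1 (0.12) and Ndufv2 (0.10), while Ndufs7 (0.05, limma adjusted p = 0.154) did not pass.

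A pair of accessory subunits of complex I fell. Ndufa1, a small membrane-arm subunit, measured 11.62 to 12.37 (median 11.95) in isoniazid livers and 11.69 to 12.31 (median 12.08) in vehicle livers. The array ranges were nearly the same, yet the strain difference was negative in 27 of 31 strains, at -0.11 (95% interval -0.15 to -0.07, limma adjusted p = 0.00015). The fall was greatest in NZW/LacJ (-0.28), and PWK/PhJ had the highest value, 0.13. Ndufa6 was lower by less, -0.07 (limma adjusted p = 0.0204), positive in 8 strains. That call was lost, at differences of -0.07 to -0.06, when arrays were centred on their medians (limma adjusted p = 0.0555), among the 22 strains with all animals alive (0.175), and without the animals numbered 1 (0.0719) or 2 (0.0533). The most negative strain was PWK/PhJ, where 10.78, 10.89, 11.27 and 11.36 in isoniazid livers stood against 11.35, 11.48, 11.55 and 11.60 in vehicle livers. Ndufb4 was the complex I gene nearest to background (2.58 ± 0.13 in isoniazid livers and 2.62 ± 0.11 in vehicle livers), and its difference of -0.04 did not pass (limma adjusted p = 0.448).

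All 4 subunits of complex II rose. Sdhb, the iron-sulfur subunit, measured 11.17 to 12.18 (median 11.69) on isoniazid arrays, against 10.98 to 11.99 (median 11.49) on vehicle arrays. The ranges overlapped over most of their length, and the shift was seen within strains: 0.19 (95% interval 0.14 to 0.25, limma adjusted p = 3.16e-06), positive in 28 strains and greatest in NOD/LtJ at 0.47. Sdha, the flavoprotein that binds succinate, had 10.33 to 11.36 (median 10.95) after isoniazid and 9.87 to 11.40 (median 10.82) after vehicle. The difference was 0.14 (limma adjusted p = 3.74e-05, 26 strains). However, the other Sdha probe sets gave 0.05, 0.05 and -0.01, at mean levels of 10.73, 2.59 and 2.45. The membrane anchors Sdhc and Sdhd differed by 0.13 (limma adjusted p = 0.00206, 24 strains) and 0.11 (limma adjusted p = 0.000526, 29 strains). Sdhc no longer passed when the animals numbered 4 were left out (0.09, limma adjusted p = 0.0549).

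Complex III was split. Uqcr10, a small subunit, measured 10.83 to 12.15 (median 11.48) after isoniazid and 10.70 to 11.80 (median 11.33) after vehicle, with only the highest isoniazid animals beyond the vehicle range. Its difference was 0.18 (95% interval 0.12 to 0.23, limma adjusted p = 8.25e-06, 28 strains). Uqcrb, which lies near the ubiquinone site, measured 13.05 to 13.69 (median 13.38) after isoniazid and 12.91 to 13.57 (median 13.23) after vehicle, a difference of 0.13 in 28 strains (limma adjusted p = 1.6e-05). The large core proteins Uqcrc2 (0.11, 29 strains) and Uqcrc1 (0.10, 26 strains) rose as well. The other subunits of the complex did not pass: Uqcrfs1, the Rieske iron-sulfur protein (-0.03), Uqcrh (0.06), Uqcr11 (-0.03) and Uqcrq, whose means of 12.08 ± 0.10 in isoniazid livers and 12.07 ± 0.09 in vehicle livers gave 0.01 (95% interval -0.02 to 0.04).

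In complex IV, the nuclear-encoded subunits Cox6b1, Cox5b, Cox7a2 and Ndufa4 rose most clearly. Cox6b1, which faces the intermembrane space, measured 11.80 to 12.88 (median 12.36) in isoniazid livers and 11.73 to 12.77 (median 12.14) in vehicle livers. Both groups spanned about the same range, since strains differed in level, but 29 of 31 strains were higher after isoniazid, by 0.21 (95% interval 0.16 to 0.26, limma adjusted p = 6.99e-08), and the second probe set gave 0.20. Cox5b was higher in 30 strains (0.16, limma adjusted p = 5.23e-07). Cox7a2, the form of subunit 7a used by liver, was higher in 28 (0.17, limma adjusted p = 3.16e-06), with 0.24 on its second probe set. Ndufa4, once assigned to complex I and now placed in complex IV, differed by 0.11 (28 strains). Cox6c, with 12.14 ± 0.13 in isoniazid livers and 12.15 ± 0.15 in vehicle livers, was the flattest at -0.01 (95% interval -0.05 to 0.03), and Cox4i1, the ubiquitous form of subunit 4, gave -0.02.

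Complex V held the rise with the smallest p of all 92 genes, in Atp5g1. It is 1 of 3 genes, with Atp5g2 and Atp5g3, whose mature product is the same c subunit of the rotating ring, each with its own import peptide. Atp5g1 measured 11.42 to 12.34 (median 11.91) on isoniazid arrays and 11.23 to 12.10 (median 11.68) on vehicle arrays. The middle of the isoniazid range lay in the upper part of the vehicle range. The strain difference was 0.23 (95% interval 0.18 to 0.28, 1.17-fold, limma adjusted p = 1.74e-08), positive in 30 of 31 strains and up to 0.46 in AKR/J.

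Its sister genes did not move alike. Atp5g3 measured 12.65 to 13.07 (median 12.89) after isoniazid and 12.53 to 13.01 (median 12.78) after vehicle, a difference of 0.09 in 30 strains (limma adjusted p = 0.000138). Atp5g2 measured 10.57 to 11.29 (median 10.93) after isoniazid and 10.67 to 11.39 (median 10.96) after vehicle, and at -0.02 (95% interval -0.06 to 0.02, limma adjusted p = 0.507) it was higher in only 12 strains. Arrays were also centred on the midpoint of their strain's isoniazid and vehicle means, taken over all scan dates, and then compared within each scan date. Over the 10 dates Atp5g1 differed by 0.17 to 0.28 and Atp5g2 by -0.17 to 0.05. Because the midpoints come from all dates, the values of the dates are not independent of each other. Averaging the probe sets of a gene lowered the Atp5g1 value to 0.13. The only other Atp5g1 probe set gave 0.02 at a mean level of 2.43. That is below the array medians, where a difference could hardly be measured. The differences between the 3 genes were not themselves tested.

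Since these 3 genes give the same mature protein from separate promoters, their start regions are printed here, 250 bases before to 50 bases after the start in RefSeq GRCm38.p6, on the minus strand of chr11:96075582-96075881, chr15:102670998-102671297 and chr2:73911277-73911576. Capitals mark exact matches, on either strand, to the motifs of NRF1 (GCGC, any base, then TGCGC), ETS and GABP factors (CCGGAAGT), ERR (AAGGTCA), YY1 (AAGATG followed at once by GCGG), NF-Y (CCAAT) and SP1 (GGGCGG). Matches that overlap are merged.
Atp5g1: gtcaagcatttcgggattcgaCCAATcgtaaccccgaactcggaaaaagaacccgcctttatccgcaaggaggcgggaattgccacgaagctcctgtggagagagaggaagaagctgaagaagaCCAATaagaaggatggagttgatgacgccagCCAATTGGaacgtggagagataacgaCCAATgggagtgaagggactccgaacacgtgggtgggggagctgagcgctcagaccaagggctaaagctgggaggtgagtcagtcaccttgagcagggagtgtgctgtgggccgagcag
Atp5g2: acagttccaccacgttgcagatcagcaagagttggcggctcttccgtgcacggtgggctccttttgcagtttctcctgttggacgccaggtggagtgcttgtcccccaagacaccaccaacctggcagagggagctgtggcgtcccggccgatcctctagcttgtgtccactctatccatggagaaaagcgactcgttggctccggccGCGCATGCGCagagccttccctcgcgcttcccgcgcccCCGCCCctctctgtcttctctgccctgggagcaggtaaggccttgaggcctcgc
Atp5g3: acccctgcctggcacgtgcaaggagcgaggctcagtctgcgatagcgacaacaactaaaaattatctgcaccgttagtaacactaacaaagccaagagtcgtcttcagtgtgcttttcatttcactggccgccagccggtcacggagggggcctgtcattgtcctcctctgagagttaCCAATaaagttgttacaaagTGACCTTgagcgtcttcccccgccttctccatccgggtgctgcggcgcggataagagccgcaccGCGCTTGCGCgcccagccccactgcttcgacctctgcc
The Atp5g1 window holds CCAAT at 5 places, a pair of which overlap on opposite strands, and no NRF1 match. Atp5g2 holds 1 NRF1 and 1 SP1 match, and Atp5g3 holds NRF1, ERR and CCAAT matches. A match is a description of the letters and not a bound site.

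Across the subunits, 60 of 71 had a promoter in the RefSeq table. The NRF1 motif, named for a factor known to drive many respiratory chain genes, was present in 14 of 60 windows (23.3%), against 8.61% of the 14411 windows of all measured genes with one. YY1 matches were in 4 (6.67%, against 1.64%), ERR in 6 (10.0%, against 4.59%) and ETS in 5 (8.33%, against 6.63%). CCAAT was in 24 of the 60, with 42.0% among all windows, and SP1 in 26 (43.3%, against 57.5%). The NRF1 motif was in 10 of the 43 subunit windows of genes called higher (23.3%) and 4 of the other 17 (23.5%). In the same order, ETS was in 2 (4.65%) and 3 (17.6%), ERR in 4 (9.30%) and 2 (11.8%), and YY1 in 3 (6.98%) and 1 (5.88%). CCAAT was in 15 (34.9%) and 9 (52.9%), and SP1 in 17 (39.5%) and 9 (52.9%). Whether any motif bears on the rise was not tested.

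The other leading subunits of complex V were Atp5k, Atp5o and Atp5j. Atp5k, subunit e at the dimer interface, measured 11.06 to 11.82 (median 11.51) in isoniazid livers and 10.61 to 11.71 (median 11.24) in vehicle livers, and the lowest vehicle animals had no counterpart after isoniazid. It differed by 0.26 (95% interval 0.20 to 0.31, limma adjusted p = 5.39e-08, 29 strains). However, its other probe sets, at mean levels of 11.30 and 11.24 against 11.33 for the one used, gave 0.10 and 0.02. The mean of its probe sets gave 0.13. Atp5o, the stalk protein OSCP, differed by 0.19 (limma adjusted p = 8.1e-08) and Atp5j, coupling factor F6, by 0.17 (limma adjusted p = 1.07e-07), both positive in 30 strains. The catalytic core moved less, with Atp5b (beta) at 0.11, Atp5a1 (alpha) at 0.07 and Atp5d (delta) at 0.06, all called. Atp5c1, the gamma subunit, had 12.05 ± 0.09 in isoniazid livers and 12.03 ± 0.09 in vehicle livers and did not pass (0.02, 95% interval -0.02 to 0.06).

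**Figure D1:**
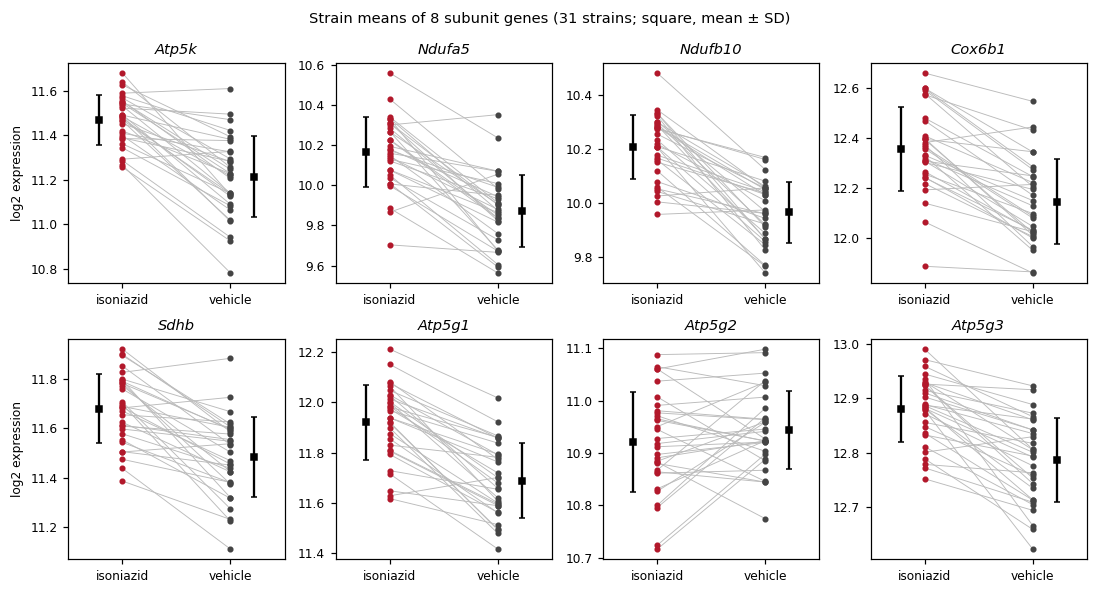
Strain means (log2) of 8 genes in isoniazid livers on the left and vehicle livers on the right of each panel; lines join the same strain, and the square with bar is the mean ± SD over 31 strains. Atp5k, Ndufa5, Ndufb10, Cox6b1, Sdhb and Atp5g1 are higher after isoniazid in 28 to 30 strains, Atp5g3 by a smaller step in 30, and Atp5g2 in 12.

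Of the 13 genes counted as assembly factors, 7 were higher and none lower (median difference 0.10), against 10.2% and 9.85% of all genes. Apart from Cox7a2l, their products build the complexes without staying in them. Ndufaf1, needed for an early complex I intermediate, averaged 8.18 ± 0.36 in isoniazid livers and 8.01 ± 0.40 in vehicle livers and rose by 0.17 (limma adjusted p = 8.93e-05, 26 strains). Ndufaf4 (0.16), Ndufaf6 (0.11) and Ndufaf8 (0.10), all of complex I, passed too, as did the complex II factors Sdhaf1 (0.18) and Sdhaf2 (0.11). Ndufaf5, an enzyme that modifies a complex I subunit, had the highest mean difference, 0.24 (95% interval 0.11 to 0.37, limma adjusted p = 0.00584), but it ran from 1.32 in NZW/LacJ to -0.64 in SEA/GnJ and no longer passed without the animals numbered 4 (0.19, limma adjusted p = 0.0513). Cox7a2l, which joins complexes III and IV into supercomplexes, had 10.96 ± 0.19 in isoniazid livers and 10.94 ± 0.14 in vehicle livers and did not pass (0.02), though PWK/PhJ alone reached 0.46.

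Of the 8 isoforms of other tissues, none was higher and 2 were lower, with a median difference of -0.04. Among all genes 10.2% were higher and 9.85% lower, so a list of 8 cannot show a difference of the class. Most of the isoforms also lay near the array medians, where a difference could hardly be measured. Cox6b2, the form of subunit 6b typical of testis, fell further than any other of the 92 genes. It measured 3.47 to 9.64 (median 4.76) on isoniazid arrays and 3.61 to 9.69 (median 5.22) on vehicle arrays. The ranges coincide because strain set the level far more than treatment did. Within strains the mean was lower after isoniazid in 31 of 31, by -0.64 on average (95% interval -0.82 to -0.46, 0.641-fold, limma adjusted p = 1.18e-06). On arrays centred on their strain's midpoint over all dates, Cox6b2 was lower on each of the 10 scan dates, by -1.04 to -0.36. Cox6b1, its liver counterpart, was higher in 29 strains.

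The vehicle means of Cox6b2 formed a high and a low set of strains. In MA/MyJ, LG/J, MRL/MpJ, LP/J, BTBR T+ tf/J, BALB/cJ and 129S1/SvImJ they were 8.38 or more, with MA/MyJ highest at 9.62, and in the other 24 strains they were 6.17 or less, with PWK/PhJ lowest at 3.93. The same 7 strains were the highest after isoniazid (at least 7.17, against at most 5.20 in the other 24), and 3 of the 7 carry the steatosis code. In 11 strains every isoniazid animal lay below every vehicle animal.

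The size of the fall in Cox6b2 varied within both sets. LG/J had 6.34, 6.52 and 8.69 in isoniazid livers, against 8.98, 9.12, 9.46 and 9.58 in vehicle livers, a difference of -2.10. BTBR T+ tf/J followed at -1.82, with 6.34, 7.15, 7.40 and 7.77 in isoniazid livers, against 8.90, 8.92, 9.06 and 9.10 in vehicle livers. LP/J differed by -1.67, with 6.63, 7.26 and 8.18 after isoniazid, against 8.88, 8.90, 9.17 and 9.19 after vehicle. In these 3 strains no isoniazid animal reached the vehicle range. MA/MyJ, the strain with the most Cox6b2, showed no such step, with 9.54 and 9.64 in isoniazid livers, against 9.54, 9.58, 9.65 and 9.69 in vehicle livers. The treatments also overlapped in the rest of the high set. 129S1/SvImJ had 7.73 to 8.62 after isoniazid and 7.96 to 8.77 after vehicle. MRL/MpJ had 7.58 to 9.48 and 8.77 to 9.26, and BALB/cJ had 7.71 to 8.66 and 8.34 to 9.35, in the same order. Among low strains, NOD/LtJ separated fully, with 4.33, 4.46, 4.85 and 5.56 after isoniazid, against 6.09, 6.11, 6.16 and 6.33 after vehicle. DBA/2J did so too, with 3.91, 3.92, 4.19 and 4.47 after isoniazid, against 4.90, 5.01, 5.18 and 5.22 after vehicle.

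The difference of Cox6b2 passed within 7 single strains, always downward: LG/J, BTBR T+ tf/J, LP/J, NOD/LtJ, FVB/NJ, C57BLKS/J and DBA/2J. The gene has a single probe set here, so a sequence variant under its probes cannot be told apart from a lower level where strains differ, whereas isoniazid and vehicle animals of an inbred strain share their sequence. The genes that lie beside it and were measured, Kmt5c, Il11, Tmem190, Tmem238 and Tmem150b, differed by -0.04 to -0.01 between the treatments and were not called. Among 7 testis markers, 1 was higher and none lower.

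Cox6b1 and Cox6b2 encode the same subunit, and their start regions are shown because the first rose and the second fell. They lie on the minus strand of chr7:30626065-30626364 and chr7:4753045-4753344 in RefSeq GRCm38.p6, with capitals for the same motifs.
Cox6b1: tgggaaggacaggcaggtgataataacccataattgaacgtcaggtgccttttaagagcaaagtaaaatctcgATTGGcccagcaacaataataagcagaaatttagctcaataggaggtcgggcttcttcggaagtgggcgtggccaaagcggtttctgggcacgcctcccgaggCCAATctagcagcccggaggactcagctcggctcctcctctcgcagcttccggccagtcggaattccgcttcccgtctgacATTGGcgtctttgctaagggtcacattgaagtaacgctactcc
Cox6b2: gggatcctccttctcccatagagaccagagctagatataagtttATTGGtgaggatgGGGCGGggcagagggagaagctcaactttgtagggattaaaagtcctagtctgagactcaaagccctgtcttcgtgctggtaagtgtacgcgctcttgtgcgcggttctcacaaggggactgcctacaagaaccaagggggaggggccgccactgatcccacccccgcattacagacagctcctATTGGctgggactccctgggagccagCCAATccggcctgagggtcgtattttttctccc
Both windows hold CCAAT at 3 places, and Cox6b2 also holds 1 SP1 match. Neither holds a match to the NRF1 motif.

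**Figure D2:**
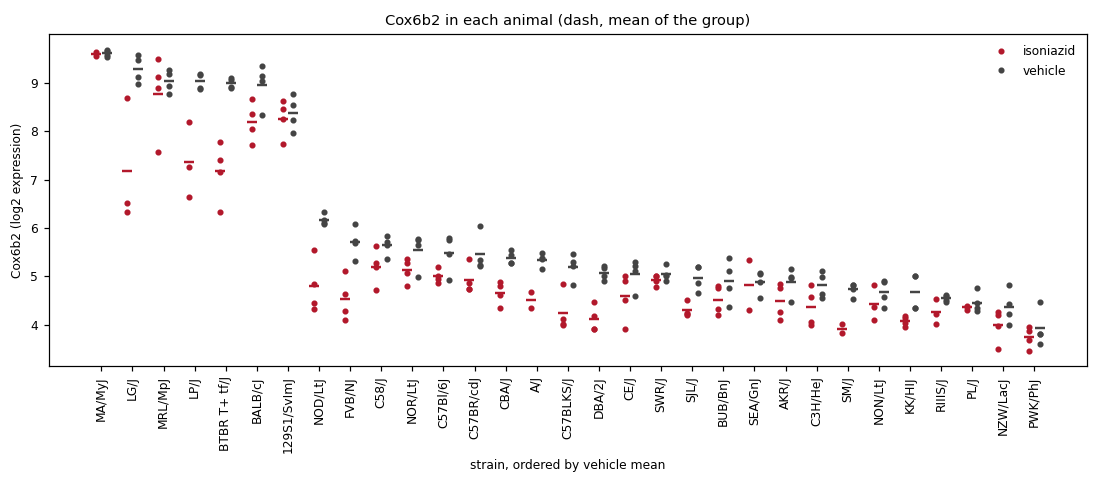
Cox6b2 (log2) in each animal, by strain, ordered by the vehicle mean, with isoniazid animals left of vehicle animals. The 7 highest strains sit at 8.38 or more in vehicle means, and LG/J, BTBR T+ tf/J and LP/J show the widest drop after isoniazid while MA/MyJ shows none.

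Cox7a1, the heart and skeletal muscle form of subunit 7a, was the other isoform that fell. Its level was low, 2.63 to 4.84 (median 3.65) after isoniazid and 2.80 to 6.25 (median 3.92) after vehicle. The highest values all belonged to vehicle animals. It differed by -0.30 (95% interval -0.42 to -0.19, limma adjusted p = 7.46e-05), with 24 of 31 strains lower, and by -0.29 (limma adjusted p = 8.52e-05) without the C58/J array that held muscle transcripts, on which it was at its maximum of 6.25. BALB/cJ fell most, with 4.13, 4.56, 4.69 and 4.78 in isoniazid livers and 4.92, 5.52, 5.61 and 6.09 in vehicle livers. Cox7a2, the liver form of the subunit, was higher in 28 strains.

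The other isoforms were not called. Cox6a2 averaged 5.01 ± 0.26 in isoniazid livers and 4.90 ± 0.15 in vehicle livers and did not pass (0.11, limma adjusted p = 0.113). It did with the mean of its probe sets (0.11, limma adjusted p = 0.016), without the strain C58/J (0.13, limma adjusted p = 0.0304) and without the 1 C58/J array alone (0.13, limma adjusted p = 0.0321), the last an alternative added after seeing the data. Cox8b differed by -0.05 (-0.02 without the C58/J array), Cox4i2, the lung form of subunit 4, by 0.05, Ndufa4l2, known to be induced by low oxygen, by 0.07, and the testis forms Cox7b2 and Cox8c by -0.03 and -0.05. None of these 5 passed.

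Strains differed in how far the subunits moved together. The difference in the mean over 71 subunits was largest in SWR/J, at 0.23 (10.96 in isoniazid livers and 10.73 in vehicle livers), with 68 of 71 subunits positive. C57BR/cdJ followed at 0.21, and NOD/LtJ and AKR/J at 0.20. The step was nearly absent in SEA/GnJ (0.02), PWK/PhJ (0.02), NOR/LtJ (0.03) and C57Bl/6J (0.03), and RIIIS/J was the 1 strain below 0, at -0.02 with 31 of 71 subunits positive. The narrow-spread arrays mattered for some of these values: without them NOR/LtJ had 0.12, PL/J 0.01 in place of 0.07, PWK/PhJ -0.02 and SWR/J 0.19, which then ranked behind C57BR/cdJ (0.23), NOD/LtJ (0.20) and MRL/MpJ (0.20). On arrays centred on their strain's midpoint over all dates, the difference in the mean was positive on 10 of 10 scan dates, at 0.07 to 0.13.

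The complexes went together in most strains, with mean differences over the strains of 0.11 for complex I, 0.14 for II, 0.07 for III and 0.10 for each of IV and V. In SWR/J the 5 complexes differed by 0.26, 0.28, 0.19, 0.18 and 0.20 from I to V. In PWK/PhJ, complex IV differed by 0.12 and complex I by 0.01. C57BR/cdJ had its largest value in complex II, 0.33.

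**Figure D3:**
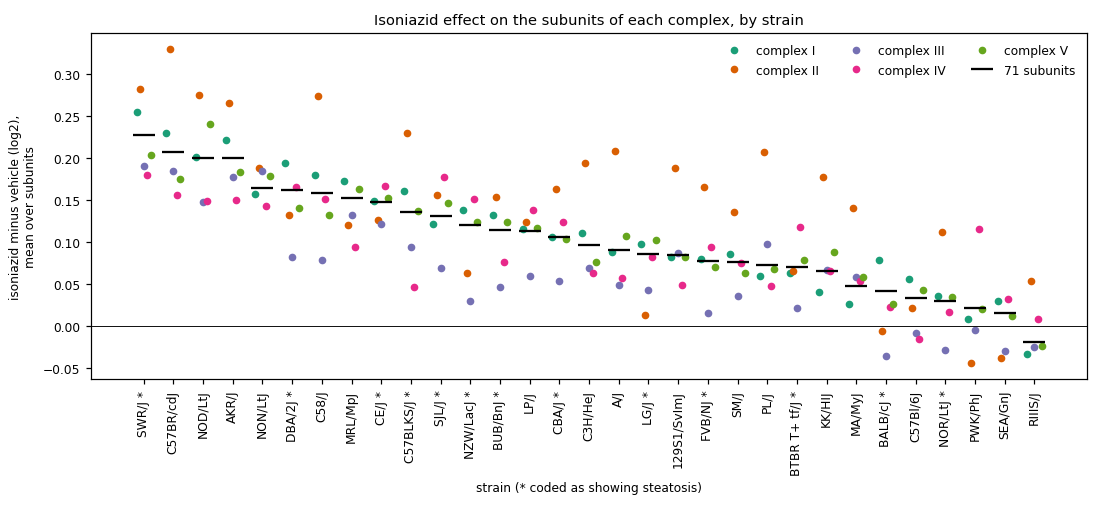
Mean difference between isoniazid and vehicle livers (log2) per strain for each complex (points) and for all 71 subunits (dash), with strains ordered by that mean and an asterisk at those with the steatosis code. The dash, over all arrays, runs from 0.23 in SWR/J to -0.02 in RIIIS/J, and strains with and without the asterisk are mixed along the axis.

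When each strain was tested by itself with animals as replicates, the 92 genes gave 140 calls higher and 16 lower over 21 strains, in 52 of the genes. Over all genes and strains, 1.27% of tests were called higher and 0.723% lower. These shares cover genes of every level, and the share among highly expressed genes was not computed within strains. The share of all genes differed widely by strain, so each count is given beside it: C58/J had 20 of the 92 higher (3.63% of all genes there), NZW/LacJ 19 (9.32%), AKR/J 17 (1.90%), DBA/2J 17 (4.56%), C57BR/cdJ 14 (0.661%) and PWK/PhJ 11 (10.4%). In PWK/PhJ the count was close to the share of all genes. Atp5k was called higher in 9 strains, and Cox6b1, Ndufb10, Atp5g1 and Ndufc2 in 7 each. The 16 lower calls were Cox6b2 in 7 strains, Ndufv3 in 3, Cox7a1 in 2, Ndufa1 in 2, and Ndufa6 and Uqcrfs1 in PWK/PhJ. Without the C58/J array with muscle transcripts there were 130 higher and 15 lower, C58/J itself had 13 of the 92 higher (2.39% of all genes there), and its call of Cox7a1 was lost (-0.31, limma adjusted p = 0.697).

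Strains coded for steatosis and the other strains gave close counts. In the 13 steatosis strains, 43 of the 92 genes were higher and 3 lower (all genes: 5.74% and 4.47%). In the 18 other strains 42 were higher and 3 lower (all genes: 4.16% and 4.13%). Of the 3630 genes above the 80th percentile of level, 588 were higher and 394 lower in steatosis strains. In the other strains 426 and 320 of them were. The difference between the 2 sets of strains was tested directly, and none of the 92 genes passed (limma, 0% of all genes called). Before adjustment Cox7a2 alone had a p under 0.05, as had 2.71% of all genes. Its isoniazid difference was 0.23 in steatosis strains and 0.13 in other strains, a gap of 0.10 (95% interval 0.00 to 0.20, limma adjusted p = 1.00). The median gap over the subunits was 0.01. Cox6b2 fell by 0.84 in steatosis strains and by 0.50 in other strains, a gap of -0.35 that did not pass (95% interval -0.69 to 0.00), and for Ndufab1 the gap of 0.11 ran from -0.01 to 0.22.

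None of the 92 genes passed between vehicle livers of steatosis strains and of other strains after adjustment (limma, 0% of all genes called, 4.06% at an unadjusted p under 0.05). Of the 92, 5 had an unadjusted p under 0.05. The lowest were in accessory subunits of complex I: Ndufa5 was lower in steatosis strains by -0.18 (95% interval -0.30 to -0.06), Ndufc1 by -0.22 (-0.40 to -0.04) and Ndufb3 by -0.15 (-0.28 to -0.02), each with a limma adjusted p of 0.988.

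Among vehicle animals most of the genes differed between strains, as did most genes of like level. In the F test over 31 vehicle groups 83 of 92 passed, with 53.4% of all genes and 93.5% of those above the 80th percentile of level. After Cox6b2 (F = 96.6) came Ndufa12, an accessory complex I subunit (F = 25.7), with vehicle means of 10.07 in BUB/BnJ to 11.45 in MA/MyJ and a median of 10.32. The 6 strains at 10.81 or more were NZW/LacJ, NON/LtJ, C57BLKS/J, C57Bl/6J, AKR/J and MA/MyJ, and the next below was 129S1/SvImJ at 10.50. The 3 probe sets of Ndufa12 disagreed on this order: MA/MyJ was the highest on all of them, but NZW/LacJ, the sixth highest here, was the lowest on both others.

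Ndufaf1 (F = 17.4) ran from 6.85 in SWR/J to 8.41 in BALB/cJ, Ndufa6 (F = 13.7) from 10.73 in NZW/LacJ to 11.50 in PWK/PhJ, and Ndufv3, an accessory subunit of the NADH-binding module (F = 10.4), from 10.36 in C58/J to 11.31 in PL/J. These spreads between strains were several times the isoniazid difference of the same genes. A sequence variant under a probe can give such a spread, and its part was not tested.

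Whether the isoniazid difference itself varied by strain was tested with the interaction of strain and treatment, which 17 of the 92 genes passed (17% of all genes, 42.9% of those above the 80th percentile of level). The count is near the share of all genes and below that of highly expressed genes, to which 73 of the 92 belong. It was 7, 2, 17 and 3 without the animals numbered 1, 2, 3 and 4, and 5 with the replicate block. Cox6b2 led with F = 3.86 (limma adjusted p = 5.87e-07). Next was Ndufab1 (F = 2.65, limma adjusted p = 0.000746), from 0.59 in NZW/LacJ, with 10.89, 10.91, 10.94 and 11.06 in isoniazid livers and 10.21, 10.30, 10.36 and 10.58 in vehicle livers, to -0.07 in MA/MyJ. NZW/LacJ separated its animals fully for this gene.

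The same strain went the other way for Ndufv3 (F = 2.50, limma adjusted p = 0.00179), at -0.42, with 10.38, 10.38, 10.41 and 10.63 in isoniazid livers and 10.77, 10.78, 10.89 and 11.03 in vehicle livers, while FVB/NJ had 0.16. Over the strains Ndufv3 did not pass (-0.05, limma adjusted p = 0.197). For Ndufaf5 (F = 2.48, limma adjusted p = 0.00195) NZW/LacJ again stood out, with 6.65, 6.74, 6.77 and 6.88 in isoniazid livers and 4.62, 5.52, 5.57 and 6.06 in vehicle livers. Cox7a2 (F = 2.40, limma adjusted p = 0.00302) ranged from 0.37 in LG/J, with 11.93, 12.43 and 12.51 in isoniazid livers and 11.83, 11.86, 11.97 and 12.00 in vehicle livers, to -0.07 in RIIIS/J. The other genes that passed were Sdhb, Cox7a2l, Ndufb8, Atp5k, Ndufa5, Ndufb3, Ndufb10, Cox6a1, Ndufs1, Ndufc2, Cox6b1 and Ndufa8.

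Genes that serve the same pathway under other names gave mixed counts, more often higher than lower. For comparison with these lists and those that follow, 10.2% of all genes were higher and 9.85% lower. Above the 80th percentile of level the shares were 24.5% and 18.6%. Of the electron carrier genes, 3 of 8 rose and none fell, led by Cycs, cytochrome c, with 10.73 ± 0.29 in isoniazid livers and 10.41 ± 0.30 in vehicle livers (0.32, limma adjusted p = 7.21e-08, 28 strains). Of 12 genes of ubiquinone synthesis, 6 rose and 1 fell: Coq7, a hydroxylase of that pathway, had 8.75 ± 0.27 in isoniazid livers and 8.29 ± 0.22 in vehicle livers (0.46, limma adjusted p = 3.63e-08, 30 strains), and Coq10a was lower by -0.23. Of 17 citric acid cycle genes, 10 rose and 1 fell, with Fh1, fumarase, at 11.69 ± 0.34 in isoniazid livers and 11.26 ± 0.38 in vehicle livers (0.43, limma adjusted p = 7.85e-10, 30 strains), a larger step than in any subunit of complex II.

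Assembly factors outside the named set followed by complex. For complex IV, 12 of 21 rose and 4 fell. Coa6, which helps deliver copper, had 9.57 ± 0.32 in isoniazid livers and 9.21 ± 0.32 in vehicle livers (0.36, limma adjusted p = 3.45e-07, 29 strains). Higd1a differed by 0.23 and Cox11, another copper factor, by 0.25, whereas Surf1 (-0.14), Sco1 (-0.10), Cmc1 (-0.09) and Higd2a (-0.08) were lower. For complex I 4 of 8 rose, for complex III 2 of 6 and for complex V 1 of 3, with none lower. Of 19 regulators of mitochondrial genes, 6 rose and none fell, among them Tfam, which packages mitochondrial DNA (0.12), and Slirp, which stabilises mitochondrial messages (0.30). The shares higher among the regulators (31.6%) and the complex III and V factors (33.3% each) were not far from the 24.5% of highly expressed genes. Little can be read from those short lists.

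Among mitochondrial ribosomal protein genes 42 of 76 were higher and 1 lower (median 0.11; the list mean was positive in 25 strains, against 30 for the subunits), and among 46 cytosolic ribosomal protein genes 1 was higher and 1 lower (median 0.02). Of the transcripts made from mitochondrial DNA only ND5, a complex I subunit, had a probe set here. It averaged 12.84 ± 0.19 in isoniazid livers and 12.92 ± 0.15 in vehicle livers and was lower, -0.09 (limma adjusted p = 0.0304), positive in 8 strains, opposite to most nuclear subunits of the same complex.

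Among markers of liver cell types, the macrophage list alone had most of its genes called (8 of 11 lower). The other lists given here had 1 or 2 calls in a direction, too few to read as a change. Among highly expressed genes 24.5% were higher and 18.6% lower, and among all genes 10.2% and 9.85%. Of 10 hepatocyte markers, 1 was higher and 2 lower: Cps1, a mitochondrial urea cycle enzyme, differed by 0.17, Hnf4a, a hepatocyte transcription factor, by -0.20, and Cyp2e1 by -0.06. The macrophage markers fell as given above, with Csf1r at 9.07 in isoniazid livers and 9.35 in vehicle livers and a difference of -0.28, and 2 of 8 endothelial, 2 of 6 T and B cell, 2 of 8 bile duct and stellate and 1 of 3 red cell markers were lower. The 3' control probes of Gapdh were higher in isoniazid livers (12.40) than in vehicle livers (12.11), in 30 of 31 strains, and the difference between the 3' and 5' ends of a transcript, a sign of RNA quality, changed by 0.23 for Pcx (higher after isoniazid in 27 of 31 strains), by -0.05 for Tfrc and by 0.00 for Actb. The change for Pcx exceeds the mean difference of the subunits. Its 3' probes averaged 10.67 in isoniazid livers and 10.45 in vehicle livers, and its 5' probes 5.84 and 5.85. Whether the change for Pcx reflects RNA quality or the level of Pcx itself was not tested. The part of these shifts in the rise of the subunits was not tested.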

How the data were processed

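RNA from the left liver lobe of 235 mice was measured on Affymetrix expression arrays, 1 array per animal, and the deposited log2 expression values cover 44721 probe sets. Per the submitters' processing notes the authors used RMA and Affymetrix Power Tools (no version is given in the sources used here). The method equalises the arrays, so a change common to all genes would not be seen, and the number of arrays limits the precision. Probe sets with 1 gene symbol (34717; 872 with several were left out) were reduced to 18146 genes by the highest mean, with no filter on low values. Each animal is a replicate of its strain and treatment, and no 2 arrays held identical values.

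Strain differences (isoniazid mean minus vehicle mean) were tested against 0 with limma 3.58.1 (lmFit and eBayes, R 4.3.3), two-sided, with Benjamini-Hochberg adjustment over all genes and a threshold of 0.05; the steatosis code was a factor in a second fit. Strain and interaction F tests and tests within strains used animals as replicates in 62 groups (173 residual degrees of freedom). The limma code was tested on simulated data. A 1.5-fold threshold, filters on level, the mean of probe sets, array centring and scaling, scan date, the narrow-spread arrays, the replicate number as a block, and omission of replicates, strains or 1 array with muscle transcripts were tried as alternatives, the last added after seeing the data.

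The members and lists were chosen with earlier results of these data known. Genes named are, by complex, the 4 with the largest moderated t and the 1 with the smallest, all called lower, the isoforms, and the leaders of the strain, interaction and steatosis tests. A few genes from other lists are named, without a fixed number or order. Further subunits are named to fill out a complex. Replicate numbers were the same across groups, but the deviations of same-numbered animals within a strain correlated at a median r of -0.02 (111 pairs, -0.42 to 0.78), so the numbers were not taken as pairs. Promoter windows and motif matches (both strands, exact letters) came from the RefSeq table for GRCm38.p6, which held 76 of the 92 genes.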

Additional observations from a re-analysis of the deposited data

Results flagged for a closer look

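In 106 tests on groups of 4 animals, the mean over the 71 subunits and the level of Cox6b2 were examined for 1 animal far from the other 3, which chance alone gives in about 1 in 20. For the subunit mean, 1 isoniazid animal of AKR/J had 10.94 (the other 3 had 11.05 to 11.06), 1 vehicle animal of BTBR T+ tf/J had 10.79 (10.91 to 10.92) and 1 vehicle animal of FVB/NJ had 10.70 (10.83 to 10.85). For Cox6b2, 1 isoniazid animal of C57BLKS/J had 4.84 (4.00 to 4.13), 1 isoniazid animal of SJL/J had 4.52 (4.21 to 4.25), 1 vehicle animal of C57BR/cdJ had 6.04 (5.22 to 5.34) and 1 vehicle animal of NOR/LtJ had 4.99 (5.65 to 5.78).

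The isoniazid difference varied between strains beyond the spread of animals for Cox6b2 (F = 3.86, strain differences of -2.10 to -0.02), Ndufab1 (F = 2.65, -0.07 to 0.59), Ndufv3 (F = 2.50, -0.42 to 0.16), Ndufaf5 (F = 2.48, -0.64 to 1.32) and Cox7a2 (F = 2.40, -0.07 to 0.37), by the interaction test of strain and treatment.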

How the results depend on the processing

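The subunit mean was positive at 0.09 to 0.12 under every alternative that gave it. No called result changed sign; of the genes not called, Cox6c had 0.03 and Uqcrq -0.01 as means of probe sets, and Ndufb4 0.00 in 22 strains. Genes higher over 31 strains (57 of 92) numbered 48 to 64 under the other settings, with 48 to 55 when animals of 1 replicate number were left out (48 without those numbered 4) and 56 to 59 without 1 strain, but 0 at a 1.5-fold threshold, where of the 4 lower only 1, Cox6b2, stayed. Genes lower numbered 2 among those above the 80th percentile, a filter that leaves out Cox6b2 and Cox7a1. In steatosis strains the 43 higher became 26 to 39 without 1 replicate number (26 without those numbered 4), 32 to 45 without 1 strain and 0 at 1.5-fold, with 1 of 3 lower; in other strains the 42 higher became 0 and the 3 lower became 0 at 1.5-fold, 1 above the 80th percentile and 1 in the 22 strains with all animals. Genes passing the interaction test (17) numbered 37 with scan date as a term, 10 with centred arrays, 33 with scaled arrays, 29 above the 80th percentile and 2 to 17 without 1 replicate number. Calls within strains (140 higher, 16 lower) were 229 and 26 with scan date, 261 higher above the 80th percentile, 33 lower with scaled arrays, 26 lower without narrow-spread arrays, and 51 to 83 and 10 to 15 without 1 replicate number. With the replicate block, 57 genes were higher and 4 lower over strains, 5 passed the interaction test and 93 calls within strains were higher. The causes of the other changes were not tested. Ndufv3 (limma adjusted p = 0.00892) and Cox6a2 (0.0207) passed with animals as replicates. Levels near the array medians (Ndufb4, Cox7c, Atp5md and most isoforms of other tissues) limit what can be read from those genes.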
